A study of Mus musculus with 6 samples.

Results

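Invariant natural killer T (iNKT) cells are T cells that carry a nearly fixed T cell receptor α chain and recognise lipids shown by CD1d. Their functional subsets are told apart by transcription factors. Zbtb16 encodes PLZF, the factor that gives the lineage its innate-like state. Tbx21 encodes T-bet, the factor of interferon-γ producing iNKT1 cells, Gata3 encodes the factor tied to type 2 cytokines, and Rora encodes RORα, a nuclear receptor known from innate-like and type 17 lymphocytes. Runx3 is a partner of T-bet in cytotoxic and type 1 cells, Eomes encodes another T-box factor, related to T-bet, Maf encodes c-Maf, which acts in cytokine-producing and type 17 cells, and Hopx encodes a small homeodomain protein found in effector T cells.

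These 8 genes are described here. They were chosen by symbol, are 8 of the 27998 genes listed in the files, and all 8 were found. Single-cell RNA libraries were made from iNKT cells of the liver, spleen and lymph node of wild-type C57BL/6 mice aged 5 weeks, with 2 libraries an organ and 6 in all. Cells of all 3 organs had been depleted of CD8+ and B220+ cells with magnetic beads and sorted on TCR-β and a CD1d tetramer. The number of mice behind a library is not given in the sources used here, so p-values measure the spread between the libraries of an organ, which may be partly technical. After filtering, 16532 of 16587 cell barcodes remained, with 2638 to 2861 cells and 4758138 to 10870838 unique molecular identifiers (UMIs) a library. Liver cells were deepest, with a median of 2880 and 3592 UMIs, against 1554 and 1724 for spleen cells and 1470 and 1730 for those of lymph node. Levels are given as CPM, the UMIs of a gene per 1000000 UMIs in the summed cells of a library, with ribosomal and haemoglobin genes left out of the total. A summed level reflects both how many cells carry a transcript and how much each carries. The libraries hold 3′ ends, so levels are compared between samples for 1 gene and not between genes.

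The sorted cells carried the T cell genes Cd3e and Cd3g, while Foxp3 was at 0 to 0.548 CPM and Ncr1 at 0 to 7.36 CPM. Lyz2, a myeloid gene, had 392 UMIs in 2.28% of cells of lymph node replicate 2 and 109 UMIs in liver replicate 2, against 3 to 35 UMIs in the others. Of 6 genes listed to define iNKT and T cells 3 were found, Cd3e, Cd3g and Cd1d1, which encodes CD1d. The T cell receptor genes of that list were not found and were not analysed here. The lymph node libraries stood apart in 3 ways that touch every comparison with them. Xist had 0 UMIs there, and the Y-linked gene Ddx3y was found in no other library, so sex and organ cannot be told apart. Immediate early genes summed to 1962 and 2178 CPM in lymph node against 159 to 288 CPM in the other libraries, and their part in the results was not tested. iNKT17-like cells made up 32.7% and 35.4% of lymph node cells and 0.714% to 1.83% elsewhere, so the tests of members over all cells against lymph node are also given with these cells left out where that moved a value or a call. Gene lists, shares and co-detection over all cells include them throughout. Of the barcodes, 6 to 20 were shared by a pair of libraries.

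Tbx21 and Hopx were the members with the widest differences between organs (plot of levels by library). Tbx21 stood at 117 and 135 CPM in liver, at 96.4 and 75.1 CPM in spleen and at 29.5 and 27.97 CPM in the lymph node libraries. The 3 organs did not overlap, and lymph node was lowest. Hopx stood at 250.3 and 186 CPM in liver, 185 and 199 CPM in spleen and 46.9 and 42.2 CPM in lymph node. Liver and spleen overlapped for Hopx, whereas both lymph node libraries lay below all others. In an edgeR quasi-likelihood test over 10251 genes, Hopx was higher in liver than in lymph node by 2.23 on the log2 scale (SE 0.14, adjusted p = 1.18e-14). Tbx21 was higher there by 2.08 (SE 0.15, adjusted p = 2.57e-13). Against lymph node, the spleen value was 2.13 for Hopx (SE 0.14, adjusted p = 1.34e-13) and 1.597 for Tbx21 (SE 0.15, adjusted p = 8.79e-10). Between liver and spleen, Tbx21 was higher in liver by 0.48 (SE 0.13, adjusted p = 0.00638), a call that was lost with DESeq2, without liver replicate 2 and without spleen replicate 2. Hopx differed by 0.10 (SE 0.12, adjusted p = 0.57), which did not pass.

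**Figure D1:**
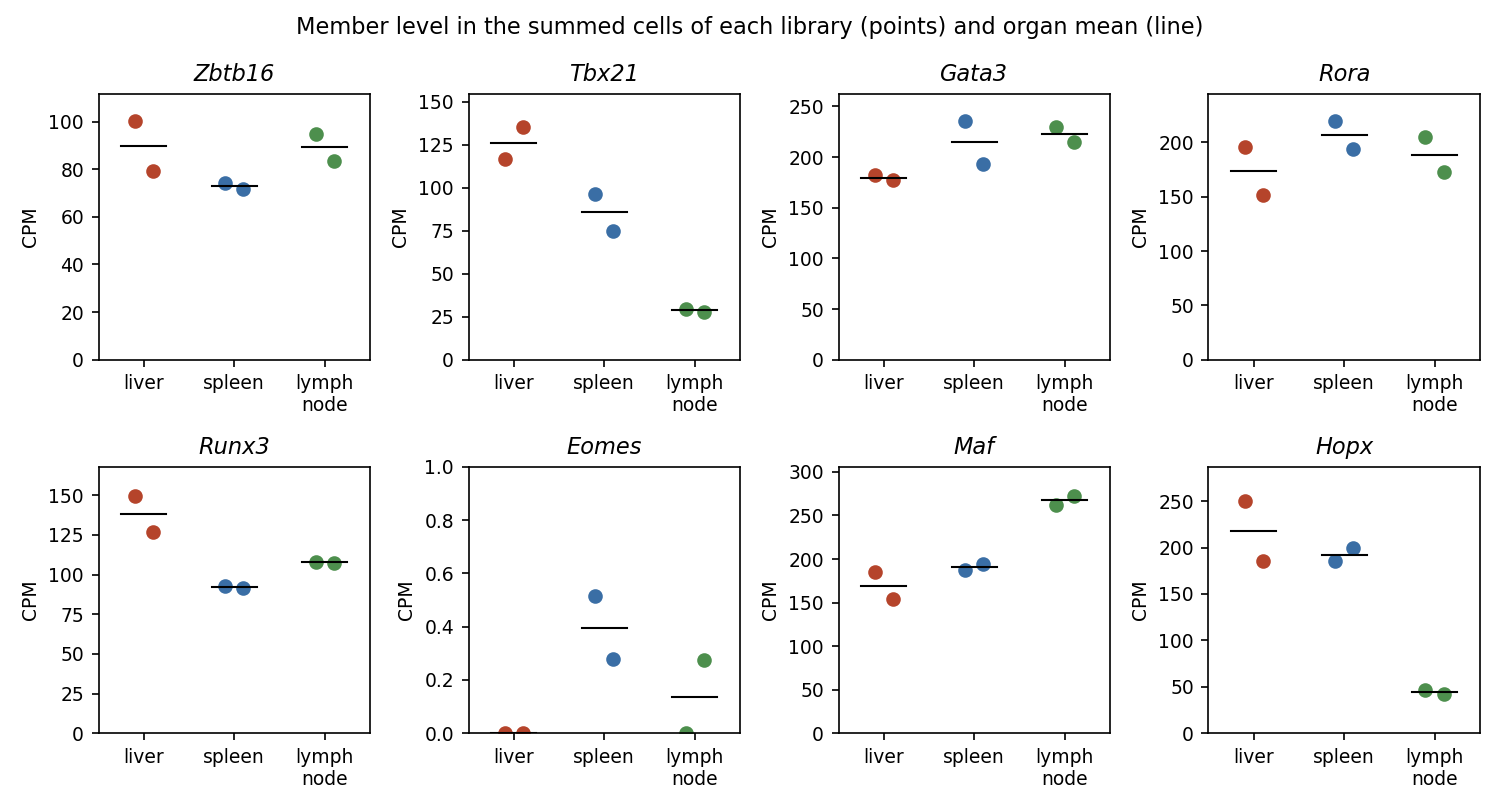
Level of each member in CPM (y axis, from 0) in the 2 libraries of liver, spleen and lymph node (points), with the organ mean as a line. Tbx21 and Hopx are lowest in both lymph node libraries, at 27.97 to 29.5 and 42.2 to 46.9 CPM, while Maf is highest there, at 263 and 272 CPM.

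Leaving out iNKT17-like cells, an alternative chosen after seeing the data, narrowed these differences without ending a call. The log2 difference between liver and lymph node became 1.73 for Hopx (SE 0.14, adjusted p = 2.07e-12) and 1.54 for Tbx21 (SE 0.15, adjusted p = 2.87e-10). Between spleen and lymph node it became 1.62 for Hopx (SE 0.14, adjusted p = 5.11e-11) and 1.06 for Tbx21 (SE 0.16, adjusted p = 5.03e-06). Shares of cells with a UMI were compared after every cell had been thinned to 1000 UMIs. A Tbx21 UMI was then found in 7.46% and 8.84% of liver cells, 7.08% and 5.55% of spleen cells and 2.23% and 2.16% of lymph node cells. A Hopx UMI was found in 15.9% and 12.9%, 13.3% and 15.5%, and 4.38% and 3.31% of cells in the same order of organs. Without thinning, a Hopx UMI was in 37.6% ± 9.36 of liver cells, against 21.7% ± 0.71 of those from spleen and 5.58% ± 0.79 of those from lymph node (SD, n = 2). The unthinned spleen and lymph node shares of Hopx lay below 24.1%. That share was found in a cluster of B cell and myeloid genes, given with the iNKT17-like cells. No difference between organs is read from shares of Hopx. In the same cluster 0 cells held a Tbx21 UMI, which allows a share of up to 10.3%. Unthinned Tbx21 shares lay below this limit in spleen replicate 2 (9.38%) and lymph node (3.94% and 3.51%). They lay above it in liver (24.0% and 23.7%) and spleen replicate 1 (12.5%). Thinned to 1500 UMIs, which leaves out more of the spleen and lymph node cells, the Hopx share of liver was at 23.6% and 17.7%, that of spleen at 16.3% and 15.7% and that of lymph node at 3.93% and 2.41%.

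The 250 bases before the starts of Tbx21 and Hopx, from RefSeq (GRCm38.p6), are shown because both genes were lowest in lymph node. Runx3, described below, is shown with them because 1 of its 2 windows holds a repeated motif for RUNX proteins. Each is printed 5′ to 3′ on the strand of the gene, at chr11:97115332-97115581 (minus strand) for Tbx21, chr5:77115124-77115373 (minus strand) for Hopx and chr4:135120395-135120644 (plus strand) for Runx3. Capitals mark a match, on either strand, to 1 of 5 motifs.
Tbx21: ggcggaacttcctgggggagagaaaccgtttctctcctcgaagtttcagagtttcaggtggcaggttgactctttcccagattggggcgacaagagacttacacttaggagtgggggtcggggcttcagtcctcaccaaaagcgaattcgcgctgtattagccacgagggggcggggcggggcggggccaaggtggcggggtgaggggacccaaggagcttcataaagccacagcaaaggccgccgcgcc
Hopx: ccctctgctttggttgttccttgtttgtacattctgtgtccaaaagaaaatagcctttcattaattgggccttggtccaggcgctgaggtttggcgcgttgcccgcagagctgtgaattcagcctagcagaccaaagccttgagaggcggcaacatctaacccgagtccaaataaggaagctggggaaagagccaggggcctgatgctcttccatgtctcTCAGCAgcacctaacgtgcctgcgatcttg
Runx3: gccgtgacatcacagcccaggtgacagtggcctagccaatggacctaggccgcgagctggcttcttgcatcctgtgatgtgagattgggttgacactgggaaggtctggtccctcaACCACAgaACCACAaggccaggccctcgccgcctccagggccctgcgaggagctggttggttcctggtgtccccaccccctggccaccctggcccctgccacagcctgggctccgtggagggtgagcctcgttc
The motifs were TGTGGT for RUNX proteins, GGTGTGA for T-box proteins, AGATAA for GATA proteins, AGGTCA for ROR proteins and TGCTGA for Maf proteins. Runx3 held TGTGGT in its reverse complement ACCACA at 134 and 126 bases before the start, and 14.0% of 32851 such windows of all genes held at least 1 match. The Hopx window shown held 1 Maf-type match, as did 16.1% of all windows, at 30 bases before its start. In the Tbx21 window these letters were not found. RefSeq gave a further window for Hopx (chr5:77095268-77095517) and for Runx3 (chr4:135152295-135152544), from another start of the gene, and neither held a match. A RefSeq promoter window was at hand for 6 of the 8 members, and not for Zbtb16 or Maf.

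Runx3, a partner of T-bet, was highest in liver. It stood at 149.7 and 127 CPM in liver, 92.6 and 91.5 CPM in spleen and 108 and 107 CPM in lymph node. Both liver libraries lay above all others, and the lymph node libraries lay above the spleen. Runx3 was higher in liver than in spleen by 0.51 on the log2 scale (SE 0.12, edgeR adjusted p = 0.00182), and this call held under each of the 15 alternatives run. The difference from lymph node was 0.30 (SE 0.12, adjusted p = 0.0408) and was lost under 8 of 15 alternatives, among them without liver replicate 1 or either lymph node replicate. Without iNKT17-like cells it was 0.54 (SE 0.13, adjusted p = 0.00127).

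Maf had the opposite order to Tbx21 and Hopx. It stood at 185 and 154 CPM in liver, 188 and 194 CPM in spleen and 263 and 272 CPM in lymph node. The 3 organs did not overlap, and lymph node was highest. Maf was lower in liver than in lymph node, with a log2 difference of -0.71 (SE 0.11, edgeR adjusted p = 6.52e-06), and lower in spleen than in lymph node, at -0.47 (SE 0.12, adjusted p = 0.00367). iNKT17-like cells, in which Maf was found in 37.3% of cells, moved with this result. Without them the difference from liver was -0.44 (SE 0.12, adjusted p = 0.00397), and that from spleen was -0.21 (SE 0.12, adjusted p = 0.278) and no longer passed. The call against spleen was also lost without spleen replicate 1.

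Gata3 and Rora varied less. Gata3 stood at 182 and 177 CPM in liver, 236 and 193 CPM in spleen and 229 and 215 CPM in lymph node, so that both liver libraries lay lowest and spleen and lymph node overlapped. Its log2 difference from spleen to liver was -0.33 (SE 0.12, edgeR adjusted p = 0.0345). From lymph node to liver it was -0.36 (SE 0.12, adjusted p = 0.0136). The first was lost under 8 of 15 alternatives, among them leaving out any 1 library other than spleen replicate 2. The second was lost under 3, including without iNKT17-like cells (adjusted p = 0.0661), without liver replicate 1 and without lymph node replicate 1. Rora stood at 196 and 152 CPM in liver, 219 and 194 CPM in spleen and 205 and 173 CPM in lymph node, and the organs overlapped. Its liver minus spleen difference of -0.33 (SE 0.12, adjusted p = 0.049) sat at the threshold and passed under 5 of 15 alternatives. It was lost without liver replicate 2 and without any 1 of the spleen or lymph node libraries. Rora differed between spleen and lymph node by 0.15 (SE 0.13, adjusted p = 0.466), and by 0.43 without iNKT17-like cells (SE 0.14, adjusted p = 0.0339).

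Zbtb16, the factor that marks the whole lineage, did not pass in any comparison of all cells. It stood at 100.2 and 79.1 CPM in liver, 74.3 and 71.5 CPM in spleen and 94.7 and 83.6 CPM in lymph node. Both spleen libraries lay below all others, and liver and lymph node overlapped. The edgeR log2 difference was 0.22 for liver minus spleen (SE 0.13, adjusted p = 0.208), -0.05 for liver minus lymph node (SE 0.13, adjusted p = 0.797) and -0.27 for spleen minus lymph node (SE 0.13, adjusted p = 0.175). Before thinning, 20.1% and 14.1% of liver cells held a Zbtb16 UMI, against 9.60% and 8.81% of those from spleen and 12.0% and 9.52% of those from lymph node. After thinning, the organ means were 5.86% ± 1.25, 4.44% ± 0.07 and 6.08% ± 0.39 (SD, n = 2). Liver was highest before thinning and overlapped lymph node at 1000 UMIs. The unthinned shares of spleen and of lymph node replicate 2 lay below 10.3%. A count of 0 in the cluster of B cell and myeloid genes, given with the iNKT17-like cells, allows up to that share. Thinned to 1500 UMIs, liver was at 8.53% and 7.07%, spleen at 7.54% and 8.32% and lymph node at 10.3% and 9.62%, so that both lymph node libraries lay above all others.

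Eomes was close to absent from the counts. It had 0 UMIs in both liver libraries, 2 and 1 in those of spleen, and 0 and 1 in those of lymph node. These 4 UMIs fell in 4 of 16532 cells, a share of 0.0242% (exact 95% binomial interval 0.00659% to 0.0619%, counting error only). In the liver libraries, a count of 0 allows up to 0.107% and 0.105% of cells with a UMI. Of the 4 cells, 3 also held UMIs of other members, and all 4 held Cd3e or Cd3g. Eomes did not pass the filter on low counts and was not tested.

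Read over the 7 members that passed the filter, 4 were called for liver against spleen, 5 for liver against lymph node and 3 for spleen against lymph node (plot of organ differences). Over all 10251 genes tested the same rule called 25.9%, 37.5% and 18.2%. Tbx21 and Runx3 were higher in liver than spleen, as were 12.8% of all genes, and Gata3 and Rora were lower, as were 13.1%. Against lymph node, liver was higher for Tbx21, Runx3 and Hopx (18.0% of all genes) and lower for Gata3 and Maf (19.6%). Spleen was higher than lymph node for Tbx21 and Hopx (7.89% of all genes) and lower for Maf (10.3%). The 3 comparisons share libraries and are not independent of each other.

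**Figure D2:**
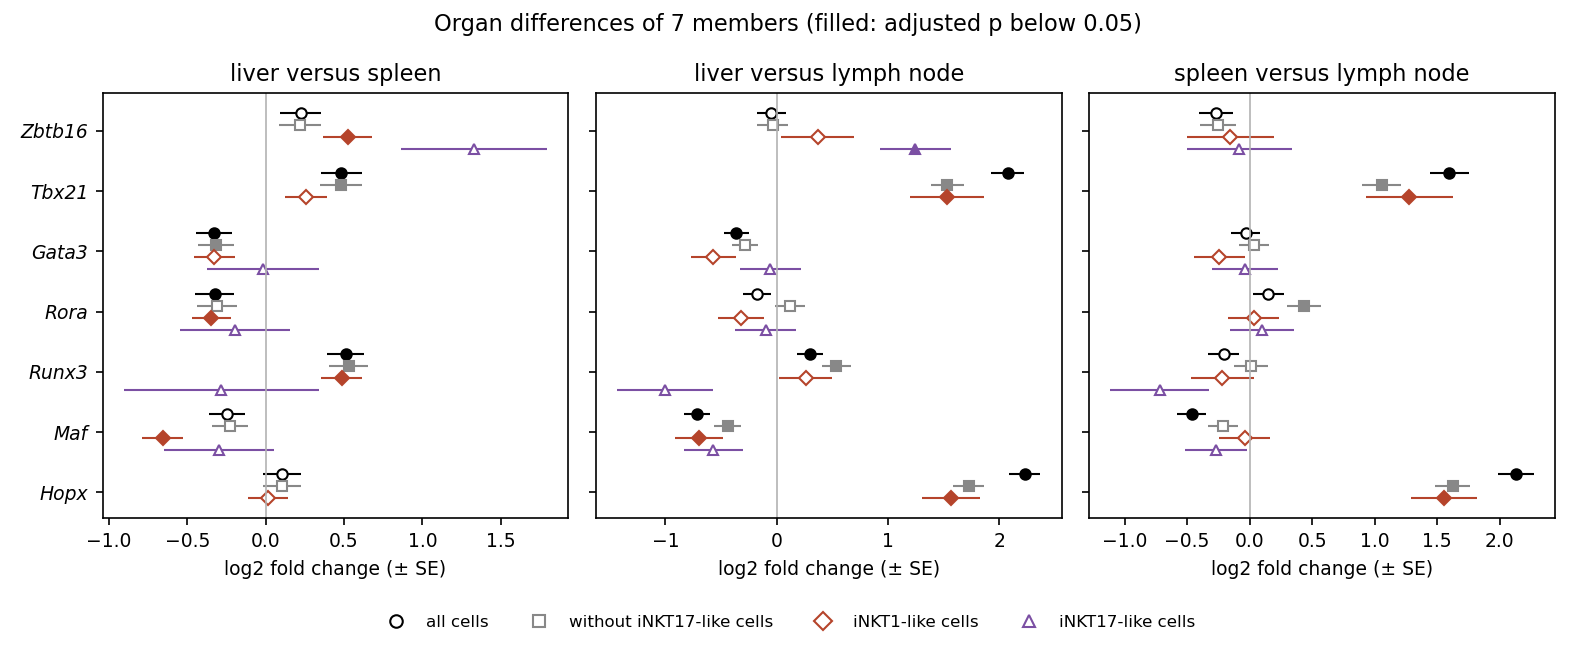
Log2 fold change of 7 members (x axis, with SE) between 2 organs, from edgeR fits to summed cells of each library: all cells, all cells without iNKT17-like cells, iNKT1-like cells and iNKT17-like cells. Filled symbols have an adjusted p below 0.05, and Tbx21 and Hopx lie 1.06 to 2.23 above lymph node in each fit shown that tested them.

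The members were next read within classes of cells, made by clustering with the members left out and named from marker genes. The iNKT1-like class held 8565 cells, but most of its liver cells and most of its spleen cells came from different clusters. In liver, 1727 of 2271 and 1511 of 2137 such cells came from a cluster led by Bcl2, Mmp9 and Socs2. In spleen, 1702 of 1913 and 1773 of 1905 came from one led by Art2b, Ccl5 and Slamf7. Only 134 and 205 lymph node cells joined the class. Of these, 38 and 70 came from the cluster that held most of the spleen cells, 29 and 52 from that of most liver cells, and 57 and 58 from a cluster led by Khsrp, Rbm45 and Fn3krp. That cluster also held 394 and 364 liver cells, and of the 13 iNKT1 markers 13 were 2-fold higher in it than in iNKT17-like cells but 0 were 2-fold higher than in all other cells. Most other lymph node cells, 1362 and 1365, formed a cluster led by Nrgn, Dusp1 and Ccl1 that stayed unnamed. The Y-linked gene Eif2s3y was among its leading genes. Sex-linked genes were not left out of the clustering. In clusters made mostly of lymph node cells, the parts of sex and organ cannot be told apart.

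Within iNKT1-like cells, Zbtb16 and Maf passed the test between liver and spleen, which they had not over all cells. The difference between the 2 sets of cells was not tested. Over all cells, the log2 difference of Maf between liver and spleen was -0.25 (edgeR adjusted p = 0.11). Of 15 alternatives, Maf passed there under 1, without the 5% of cells with the most UMIs (adjusted p = 0.0243). Zbtb16 stood at 92.6 and 72.4 CPM in liver and 52.8 and 56.2 CPM in spleen. The 2 organs did not overlap, and the log2 difference was 0.52 (SE 0.16, edgeR adjusted p = 0.00909). It was lost with DESeq2, without liver replicate 1 and without spleen replicate 1 (adjusted p up to 0.189 over 11 alternatives). Maf stood at 168 and 123 CPM in liver and 210.0 and 225 CPM in spleen, again without overlap, with a log2 difference of -0.66 (SE 0.13, adjusted p = 7.56e-05) that passed under each of 11 alternatives. Runx3 remained higher in liver by 0.48 (SE 0.13, adjusted p = 0.00414, lost without spleen replicate 2), and Rora lower, at -0.35 (SE 0.13, adjusted p = 0.0368). Tbx21, called over all cells, differed by 0.26 within the class (SE 0.14, adjusted p = 0.17). Hopx differed by 0.01 (SE 0.13, adjusted p = 0.957). Of the 7 members tested in this class 4 were called between liver and spleen, where 22.2% of 9431 genes were. Rora was lost under 5 of 11 alternatives, among them without liver replicate 2, without spleen replicate 1 and without spleen replicate 2.

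Against lymph node, iNKT1-like cells kept the difference of both Tbx21 and Hopx. The lymph node cells of this class also carried more of a list of type 17 genes, given below with other lists. Of its 9 genes tested in the class, 7 were lower in liver (median log2 difference -3.78) and 7 in spleen (-2.52). Its part in the differences of Tbx21 and Hopx was not tested. Hopx stood at 291 and 224 CPM in liver, 224 and 259 CPM in spleen and 110.4 and 68.1 CPM in lymph node. The log2 difference of Hopx was 1.56 from liver (SE 0.26, edgeR adjusted p = 4.88e-06) and 1.55 from spleen (SE 0.26, adjusted p = 1.69e-05), the latter lost without lymph node replicate 2 (adjusted p = 0.0975). Tbx21 stood at 47.3 and 41.9 CPM in lymph node, resting on 6 and 8 UMIs, against 90.2 to 136 CPM in liver and spleen. Its log2 difference was 1.53 from liver (SE 0.34, adjusted p = 0.000727), lost without lymph node replicate 2. From spleen it was 1.28 (SE 0.35, adjusted p = 0.0219), lost without either lymph node replicate, without spleen replicate 1 and with DESeq2. Maf had a log2 difference of -0.70 between liver and lymph node (SE 0.21, adjusted p = 0.028) that was lost under 5 of 11 alternatives, among them without liver replicate 2 and without either lymph node replicate. These calls were 3 and 2 of 7 members, where 6.65% and 2.43% of all genes tested were called.

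These values moved with the choice of lymph node cells, while Tbx21 and Hopx stayed lower there under both choices tried. At the finer Leiden resolution of 1.0, 925 and 979 lymph node cells of a cluster led by Gm17056, Dusp1 and Junb were also named iNKT1-like. This cluster had Gadd45b, a marker of the NF-kB-like list, and no iNKT1 marker among its 10 leading genes. The Y-linked genes Eif2s3y and Ddx3y were among those 10. Of the 13 iNKT1 markers, 1 was 2-fold higher in it than in all other cells. The differences from liver were then 1.196 for Hopx (SE 0.14, edgeR adjusted p = 9.76e-12), 0.99 for Tbx21 (SE 0.16, adjusted p = 2.46e-07) and 0.50 for Runx3 (SE 0.14, adjusted p = 0.00499). Lower in liver were Maf, at -0.58 (SE 0.13, adjusted p = 0.000341), and Gata3, at -0.51 (SE 0.13, adjusted p = 0.00132). Gata3 had not passed within the class as named (-0.57, SE 0.20, adjusted p = 0.0765). With the unnamed cluster added to the class instead, also chosen after seeing the data, Maf and Gata3 were again lower in liver (adjusted p = 1.02e-05 and 0.00756). That cluster brought in markers of another class, with 3 of 6 iNKT2 markers 2-fold higher in it than in other cells. Zbtb16 was lower in spleen than in lymph node (log2 difference -0.74, SE 0.16, adjusted p = 0.000506) and Rora was higher by 0.45 (SE 0.14, adjusted p = 0.017), neither of which passed within the class as named or at resolution 1.0, where Nrgn- and Ccl1-led cells stood apart as iNKT2-like (adjusted p = 0.65 and 0.227).

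iNKT17-like cells of lymph node carried little Tbx21 and Hopx and much Maf. The cluster, led by Ccr6, Pxdc1 and Sdc1, held 862 and 1007 lymph node cells, but only 20 and 30 liver and 50 and 34 spleen cells. In lymph node, Tbx21 was at 5.41 and 6.49 CPM in these cells and at 47.3 and 41.9 CPM in iNKT1-like cells of the same libraries. Hopx was at 13.9 and 10.8 CPM against 110.4 and 68.1 CPM, while Maf was at 348 and 361 CPM against 292 and 189 CPM. Transcripts of other cells can reach any droplet. In a cluster of 29 cells whose 10 leading genes mixed myeloid genes such as Lyz2 and Apoe with the B cell genes Cd79a and Ly6d, and of which 20 cells came from liver (median 1876 UMIs), 24.1% held a Hopx UMI and 0 held a Tbx21 UMI, which allows a share of up to 10.3%. Of the same 29 cells 20.7% held a Runx3 UMI, 17.2% a Maf UMI, 10.3% a Rora UMI and 6.90% a Gata3 UMI. A Zbtb16 UMI was held by 0 of them, which likewise allows up to 10.3%. Doublets and free transcripts cannot be told apart in so few cells. For Hopx, unthinned shares of whole libraries lay below the share found in that cluster in spleen (21.1% and 22.2%) and lymph node (6.14% and 5.02%). So did those of Runx3 in spleen and lymph node (11.45% to 13.8%). These shares of Hopx and Runx3 are not read as expression or as differences.

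Zbtb16 was higher in the few iNKT17-like cells of liver than in those of lymph node. It stood at 259 and 194 CPM in liver, from 19 and 14 UMIs, against 89.6 and 100.4 CPM in spleen (8 and 6 UMIs) and 96.6 and 93.1 CPM in lymph node (125 and 129 UMIs). Both liver libraries lay above the others. The log2 difference between liver and lymph node was 1.25 (SE 0.32, edgeR adjusted p = 0.00188) and was lost without liver replicate 1. Between liver and spleen it was 1.33 (SE 0.47, adjusted p = 0.102). Of the 5 members tested here, 1, 0 and 0 were called for liver against lymph node, liver against spleen and spleen against lymph node, where 16.8%, 3.15% and 6.12% of 1780 genes were. Tbx21, Hopx and Eomes did not pass the filter on low counts in this class. Differences between the classes in their organ effects were not tested.

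**Figure D3:**
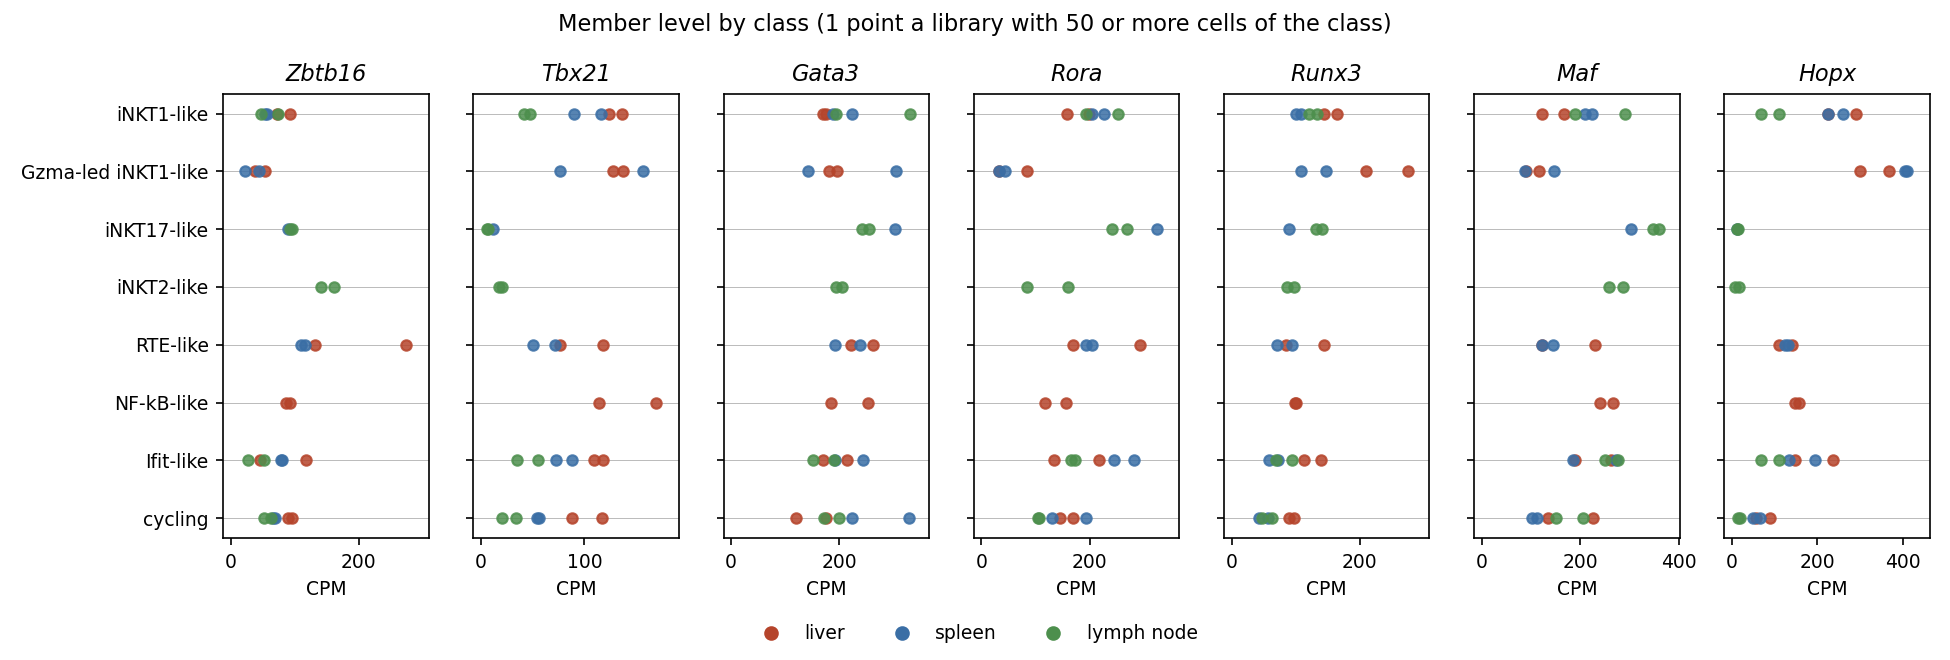
Level of 7 members in CPM (x axis) in each class of cells (rows), with 1 point for each library that held 50 or more cells of the class, coloured by organ. Tbx21 and Hopx are low in iNKT17-like and iNKT2-like cells, at 5.41 to 20.1 and 6.48 to 16.1 CPM in lymph node. Rora is low in the Gzma-led cells, at 32.5 to 84.0 CPM in liver and spleen.

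Other classes had member profiles of their own, given as values with no test because they were defined on the same cells. At resolution 1.0, 813 cells formed an iNKT2-like cluster, of which 420 and 381 came from lymph node. Zbtb16 was at 161 and 141 CPM in these, Maf at 259 and 287 CPM, Tbx21 at 20.1 and 17.8 CPM and Hopx at 16.1 and 6.48 CPM. Recent thymic emigrant-like (RTE-like) cells made up 19.8% and 18.1% of spleen cells. Of these 539 and 481 cells, 535 and 479 fell in a cluster led by Ccr7 and Klf2. In the 2 spleen libraries the Zbtb16 of this cluster was at 116 and 110.4 CPM against 52.8 and 56.2 CPM in iNKT1-like cells. Its Hopx was at 130.3 and 124 CPM against 224 and 259 CPM. A further RTE-like cluster of 169 cells, led by Dapl1, came mostly from lymph node. Its Zbtb16 there was at 23.5 and 41.8 CPM from 2 and 3 UMIs, against 47.3 and 73.4 CPM in iNKT1-like cells. The other members apart from Eomes were also lower in it. Rora was at 23.5 and 0 CPM against 252 and 194 CPM, and Maf at 47.0 and 27.85 CPM against 292 and 189 CPM. Gata3 was at 106 and 83.5 CPM against 331 and 194 CPM, and Tbx21 had 0 UMIs.

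A cluster of 512 cells within the iNKT1-like class was led by Gzma, the gene of a granzyme, and by Ly49 receptor genes such as Klra9. In liver, its Rora stood at 84.0 and 32.5 CPM against 199 and 158 CPM in all iNKT1-like cells, its Runx3 at 275 and 210.0 CPM against 164 and 144 CPM, and its Hopx at 366 and 299 CPM against 291 and 224 CPM. In spleen its Rora stood at 43.4 and 32.7 CPM against 227 and 204 CPM, its Runx3 at 148 and 109 CPM against 108 and 101 CPM, and its Hopx at 408 and 404 CPM against 224 and 259 CPM. Cycling cells had the lowest Hopx of the classes that mostly came from liver and spleen, at 88.2 and 56.8 CPM in liver and 65.8 and 48.5 CPM in spleen, while their Zbtb16 stood at 90.2 and 95.2 CPM and 65.8 and 69.7 CPM.

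Single cells seldom showed more than 1 member. After thinning to 1000 UMIs, 45.4% to 50.2% of the cells of a library held no UMI of any member, 35.7% to 38.4% held exactly 1 and 10.9% to 13.4% held 2. A cell with no UMI is not a cell without the factor at this depth. Hopx was the only member found in 8.30% of liver, 7.79% of spleen and 2.18% of all lymph node cells (means of 2 libraries). As with the other shares of Hopx, no difference between organs is read from these. Maf was the only member in 5.05% of liver, 6.53% of spleen and 10.0% of all lymph node cells. Each profile with 2 members held few cells, and no difference between organs in them was tested. Rora with Maf was found in 57 and 41 lymph node cells (2.40% and 1.74%), and in the second library Gata3 with Maf was found as often. Runx3 with Hopx was the commonest such profile in both liver libraries, at 1.18% and 1.09%. The spleen libraries differed in theirs, with Gata3 with Rora at 1.63% in replicate 1 and Maf with Hopx at 1.41% in replicate 2.

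Co-detection was measured for pairs of members as an odds ratio within 5 bins of UMIs a cell, so that deep cells do not make every pair look linked. Eomes had too few UMIs, which left 21 of 28 pairs. Of these, 3 lay above 1 in all 6 libraries and 2 lay below 1 in all 6 (plot of member pairs). Zbtb16 and Hopx were found together less often than independence within bins gives, in 467 cells against 528. Their odds ratio was 0.75 and 0.88 in the liver libraries, 0.87 and 0.80 in those of spleen and 0.66 and 0.61 in those of lymph node, and it lay below 1 in 6 of 6 libraries also in cells thinned to 1000 UMIs, where it ranged from 0.419 to 0.939. With no depth bins 1 library moved to 1.005. Within iNKT1-like cells of liver and spleen alone the ratio was 0.791 to 0.959 in 4 of 4 libraries. In iNKT17-like cells of lymph node it was 1.69 and 1.09, resting on 3 and 2 shared cells.

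The pairs above 1 in all 6 libraries were Zbtb16 with Gata3 (geometric mean 1.16, range 1.03 to 1.59), Zbtb16 with Maf (1.13, 1.04 to 1.24) and Tbx21 with Gata3 (1.22, 1.03 to 1.93). These are weak links in sparse counts. After thinning, none of the 3 kept to 1 side of 1, and the ranges ran from 0.785 to 1.21, 0.864 to 1.53 and 0.906 to 1.95. Gata3 with Hopx lay below 1 in 6 of 6 libraries (0.836 to 0.991) and in 4 of 6 after thinning. Zbtb16 with Rora lay above 1 in 5 of 6 libraries (0.912 to 1.57), in 705 cells against 614.8. Its geometric mean of 1.26 was larger than that of Zbtb16 with Gata3 or Maf. After thinning Zbtb16 with Rora was again above 1 in 5 of 6 (0.765 to 1.7). Within iNKT1-like cells of liver and spleen that pair was above 1 in 4 of 4 libraries (1.149 to 1.76). Within iNKT1-like cells of liver and spleen, Zbtb16 with Gata3 lay above 1 in 1 of 4 libraries (0.80 to 1.61), Zbtb16 with Maf in 3 (0.968 to 1.46), Tbx21 with Gata3 in 4 (1.015 to 1.31) and Gata3 with Hopx in 2 (0.887 to 1.07). Tbx21 with Hopx stood at 0.97 and 0.97 in the liver libraries, 1.64 and 1.41 in those of spleen and 2.84 and 1.66 in those of lymph node. Both liver libraries lay just below 1 and the other 4 above it, but after thinning the values were 1.11 and 0.623, 1.61 and 1.16, and 3.49 and 0.58, with 1 liver and 1 lymph node library below 1. Zbtb16 with Tbx21, the lineage factor with the iNKT1 factor, lay between 0.885 and 1.07 and was found in 344 cells against 343 given by independence within bins. After thinning this pair ran from 0.32 to 1.23, below 1 in 5 of 6 libraries and in 41 cells against 47.3, and without the 5% of cells with the most UMIs it ran from 0.666 to 1.13.

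**Figure D4:**
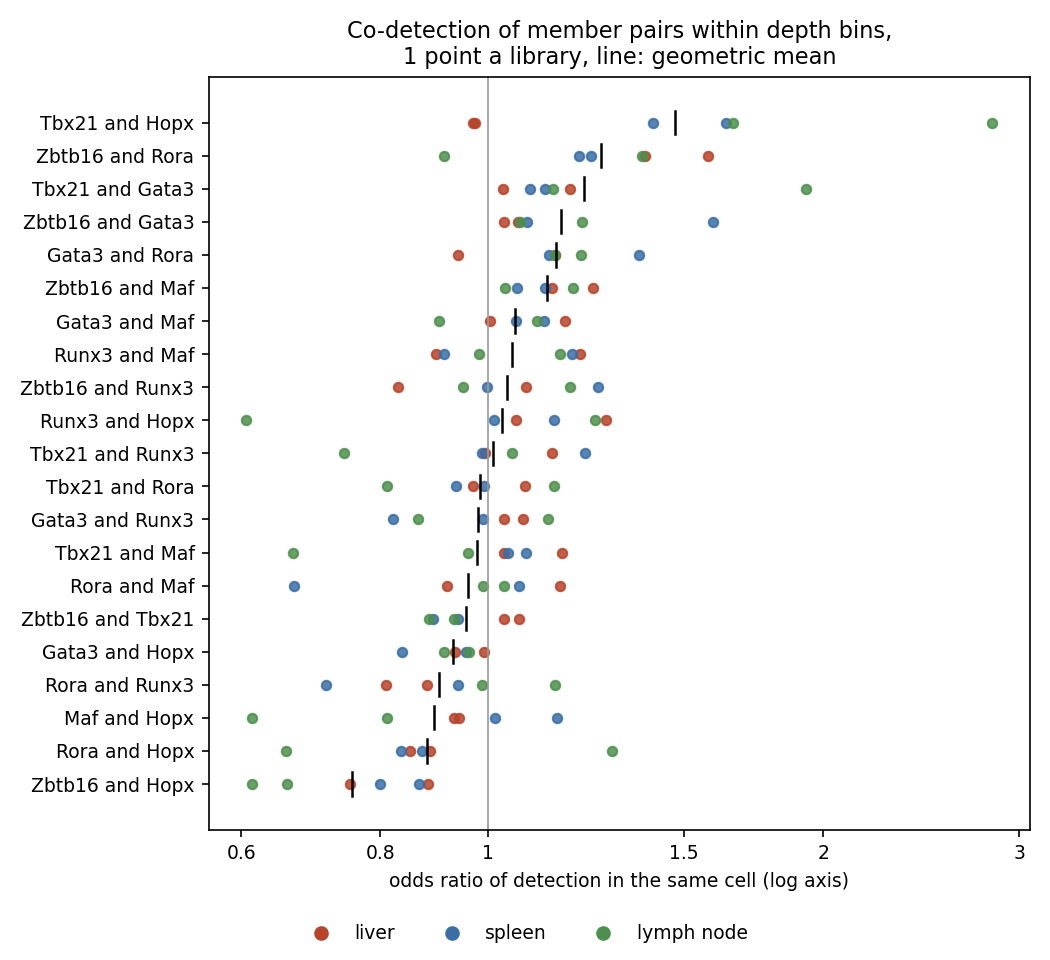
Odds ratio of finding 2 members in the same cell (x axis, log scale), within 5 bins of UMIs a cell, for 21 pairs, with 1 point a library coloured by organ and the geometric mean as a line. Zbtb16 with Hopx has the lowest geometric mean (0.75), with points at 0.61 to 0.88, and the points of most other pairs lie on both sides of 1.

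The members also differed in the lineage genes that shared their cells (plot of members with lineage genes). Of 105 pairs of 7 members with 15 genes, 25 lay on the same side of 1 in all 6 libraries. Hopx shared cells with Klrb1c, the gene of NK1.1 (geometric mean odds ratio 1.57, range 1.29 to 2.38), with Il2rb, a chain of the interleukin-15 receptor (1.51, 1.16 to 3.36), and with Cxcr3, a chemokine receptor of type 1 cells (1.45, 1.08 to 2.24). It was seldom found with Ccr7, a lymph node homing receptor (0.39, 0.161 to 0.751). Tbx21 likewise shared cells with Il2rb (1.63, 1.22 to 3.16) and seldom with Ccr7 (0.48, 0.226 to 0.778).

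Rora and Maf were both found with Icos, a costimulatory receptor, above 1 in 6 of 6 libraries, Rora at 1.28 (1.102 to 1.37) and Maf at 1.28 (1.11 to 1.45). With Ccr6, a chemokine receptor of type 17 cells, each lay above 1 in 5 of 6 libraries, Rora in 211 cells against 162.9 given by independence and Maf in 281 against 203.9. Rora was below 1 with Klrb1c (0.78, 0.684 to 0.938) and with Izumo1r, the folate receptor 4 gene of iNKT2 cells (0.68, 0.503 to 0.956). Zbtb16 was above 1 with Il4 (1.203, 1.03 to 1.57), Icos (1.35, 1.14 to 1.65) and Izumo1r (1.23, 1.02 to 1.44) and below 1 with Klrb1c (0.74, 0.47 to 0.907). Runx3 was above 1 with Il2rb (1.14, 1.065 to 1.22) and with Ifng, the gene of interferon-γ (1.18, 1.01 to 1.54). With Il4 (1.08) Runx3 ran up to 1.35, but in lymph node replicate 2 it lay at 1 to the digits kept. Gata3 lay on the same side of 1 in all 6 libraries only with Klf2 (1.19, 1.13 to 1.35). Maf was below 1 with Klf2 (0.81, 0.704 to 0.971), and Hopx with Icos (0.78, 0.523 to 0.981). With Mki67, a gene of cycling cells, Rora (1.33) and Maf (1.35) were above 1, as was Rora with S1pr1 (1.12). With Ccr6, Tbx21 and Hopx were below 1 in 6 of 6 libraries, in 11 and 16 cells against 29.01 and 39.53. Cells of a library are not replicates, and these ratios carry no p. They were not run on thinned cells.

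**Figure D5:**
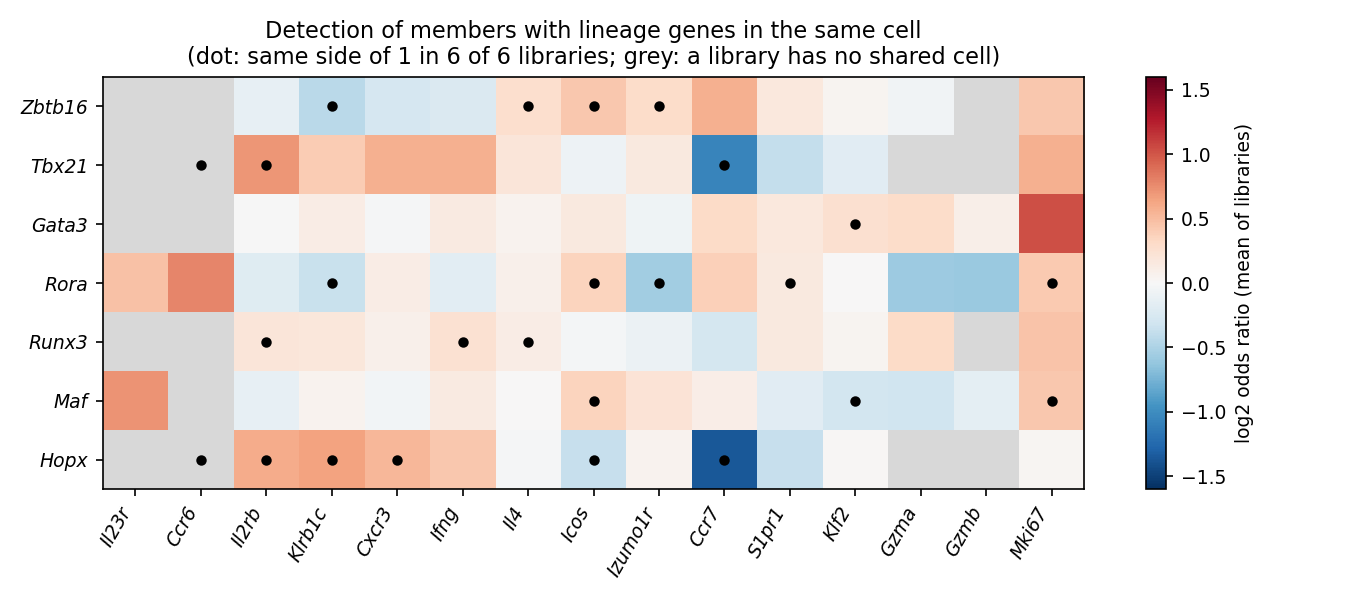
Mean over libraries of the log2 odds ratio of finding a member (rows) and a lineage gene (columns) in the same cell, within 5 bins of UMIs a cell, with a dot where all 6 libraries lie on the same side of 1 and grey where a library has no shared cell. Hopx is low with Ccr7 (odds ratio 0.39) and high with Klrb1c (1.57), and Rora is low with Izumo1r (0.68).

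Among 5849 genes found in at least 2% of cells of every library, the genes most like Hopx across cells were Nkg7 (mean Pearson r 0.157 over 6 libraries, range 0.135 to 0.184), Ccl5 (0.137, 0.0955 to 0.155) and Ms4a4b (0.111, 0.0562 to 0.176). These cells share libraries and depth, and the values are descriptions. For the other 6 members tested no gene reached a mean r of 0.1. The highest were Lmo4, Cxcr6 and Emb, all for Rora, at 0.0902, 0.0871 and 0.0849.

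Lists of programme genes, partner proteins and other lineage factors were followed as well, and regulation of these genes by the members was not tested. Of 14 genes of the T-bet programme, 13 were higher in liver than in lymph node and 0 lower, with a median log2 difference of 1.87 against 0.01 over all genes tested, of which 18.0% were called higher and 19.6% lower. Gzmb, a granzyme gene (4.87, SE 0.23, edgeR adjusted p = 1.38e-12), and Klre1, a killer lectin-like receptor gene (3.63, SE 0.17, adjusted p = 2.98e-18), differed most. Between spleen and lymph node 12 were higher and 1 lower (median 1.28), where 7.89% and 10.3% of all genes were. Between liver and spleen 7 were higher and 0 lower (median 0.36), where 12.8% and 13.1% of all genes were. Within iNKT1-like cells, a class named from markers of which this list holds several, 9 were higher and 0 lower between liver and lymph node (median 0.88), 7 higher and 2 lower between spleen and lymph node (median 0.76) and 6 higher and 2 lower between liver and spleen (median 0.15). In these cells 6.65%, 2.43% and 22.2% of all genes were called in the same order of comparisons. The type 17 list holds the markers that named the iNKT17-like class. Of its 12 genes, 12 were lower in liver than in lymph node (median -4.47), led by Ccr6 (-6.23, SE 0.24, adjusted p = 1.88e-20) and Il23r (-5.71, SE 0.35, adjusted p = 3.54e-14), and 12 were lower in spleen (median -3.26). Within iNKT1-like cells, 7 of the 9 tested were lower in liver (median -3.78) and 7 in spleen (median -2.52).

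Of 8 type 2 genes, 6 were lower and 1 higher in liver than in lymph node (median -1.34), where 37.5% of all genes tested were called in either direction. Within iNKT1-like cells, 2 of the 7 tested were lower and 1 higher (median -0.28), where 6.65% of all genes were called in either direction. Over all cells, Il6ra, a chain of the interleukin-6 receptor, was lower (-3.76, SE 0.21, edgeR adjusted p = 6.35e-16), and Plac8 was higher (3.37, SE 0.14, adjusted p = 1.27e-19). Of 19 tested among 20 other lineage factors, 4 were higher and 10 lower in liver than in lymph node (median -0.59). Among the lower was Sox4 (-4.26, SE 0.33, adjusted p = 5.76e-10). Within iNKT1-like cells 1 was higher and 5 lower of 18, beside the same 6.65% of all genes. Of 10 genes of partner proteins, 4 were higher and 2 lower in liver than in lymph node (median 0.27), and 0 were called within iNKT1-like cells by edgeR (3 at an unadjusted p below 0.05, median 0.25). Over all cells, Zfpm1, which encodes the GATA cofactor FOG1, was higher in liver than in lymph node by 1.24 (SE 0.20, adjusted p = 6.29e-06) and than in spleen by 1.03 (SE 0.19, adjusted p = 0.000179). Irf4, which encodes a factor induced by T cell receptor signals, was higher there in liver than in lymph node by 1.41 (SE 0.32, adjusted p = 0.000636). Between liver and spleen over all cells 3 of the 10 were called, all higher in liver, which is near the 25.9% of all genes that were called there.

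In GENCODE vM21 (GRCm38) the members lie at chr9:48654297-48836222 (Zbtb16, minus strand), chr11:97098071-97115331 (Tbx21, minus), chr2:9857078-9890034 (Gata3, minus), chr9:68653786-69388246 (Rora, plus), chr4:135120652-135177990 (Runx3, plus), chr9:118478212-118486132 (Eomes, plus), chr8:115682942-115707794 (Maf, minus) and chr5:77086988-77115121 (Hopx, minus). Hopx overlaps the antisense gene Hopxos, which had 318 UMIs against 4687 for Hopx, and the other listed genes that overlap a member had at most 25 UMIs. Whether the counting used the strand of the reads is not given in the sources used here.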

How the data were processed

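Libraries of the 10x Genomics Chromium 3′ kit (v2 chemistry) were, per the labels and the study's methods, processed by the authors with Cell Ranger 3.1.0 against mm10. The deposited matrices give whole-number UMI counts, not normalized, for each gene in each cell. The other deposited lists give the barcodes and the gene identifiers. A label calls the molecule nuclear RNA, and no source used here explains it.

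Cells were kept with 300 to 4000 genes and up to 15% of UMIs from mitochondrial genes, which removed 55 barcodes. No doublet caller was run, and leaving out the 5% of cells with the most UMIs was tried instead. For the organ comparisons, counts were summed per library and tested with edgeR 4.0.16 (quasi-likelihood, TMM, filterByExpr, robust) over 10251 genes, with all 6 libraries in 1 fit and Benjamini-Hochberg adjusted p below 0.05 as a call. Cells were clustered without the members (scanpy 1.11.5, leidenalg 0.10.2, 3000 variable genes, 20 components, 20 neighbours, resolution 0.5 or 1.0). Clusters were named from marker lists, with naming limits set after the clusters had been seen. Odds ratios are Mantel-Haenszel ratios over 5 equal bins of UMIs. Both kinds of code were tested on simulated data. The members and lists were chosen with earlier results of these data known. Genes named beside the members were, for each member, the 3 with the highest mean correlation where it reached 0.1, and, for each list, the 2 called genes with the largest change, of which 1 is not reported here. Exceptions were named after their values were seen. They were Cd3e, Cd3g, Cd1d1, Foxp3, Ncr1, Xist, Ddx3y, Lyz2, Lmo4, Cxcr6 and Emb, overlapping genes and genes that lead clusters. Alternatives were DESeq2 1.42.0, other size factors, filters, depths, cells and resolutions, a replicate block and leaving out each library. Intervals and limits for counts of 0 cover counting error only.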

Additional observations from a re-analysis of the deposited data

Results flagged for a closer look

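The Runx3 levels of liver and lymph node lay in opposite order in 2 classes of cells, and neither difference passed the edgeR test (adjusted p = 0.621 in iNKT1-like and 0.0982 in iNKT17-like cells). In iNKT1-like cells both liver libraries lay above both lymph node libraries, with a log2 ratio of mean levels of 0.28. In iNKT17-like cells both liver libraries lay below, at 109 and 27.6 CPM against 132 and 141 CPM, with a log2 difference of -1.0. The liver values there rest on 8 and 2 UMIs in 20 and 30 cells. This was 1 of 24 such comparisons, and the difference between the classes was not tested.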

How the results depend on the processing

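The calls of Hopx and Tbx21 between lymph node and the other organs over all cells, of Maf between liver and lymph node and of Runx3 between liver and spleen held under each of the 15 alternatives run. For other members the calls that were lost are given beside them in the report. The cause of a change below was not tested. Each value that changed sign belonged to a difference that was not called in edgeR as reported.

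With DESeq2, 1439 genes were called over all cells for liver against spleen (2658 with edgeR) and 1137 for spleen against lymph node (1869). In iNKT1-like cells it called 905 between liver and spleen (2092), and in iNKT17-like cells 141 between liver and lymph node (299), 32 for liver against spleen (56) and 44 for spleen against lymph node (109). With no filter on low counts the iNKT17-like count between liver and spleen was 29. At resolution 1.0, iNKT1-like cells gave 2443 calls for liver against lymph node (627) and 967 for spleen against lymph node (229). With the unnamed cluster they gave 3161 and 1430.

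Leaving out 1 library at a time gave 1385 to 2421 calls over all cells for liver against spleen, 2403 to 4053 for liver against lymph node and 1015 to 1945 for spleen against lymph node. The lowest were without liver replicate 1, lymph node replicate 2 and lymph node replicate 2. In iNKT1-like cells the ranges were 870 to 2181, 183 to 706 and 74 to 287, lowest without spleen replicate 2 and, for both others, lymph node replicate 2. In iNKT17-like cells they were 13 to 51, 121 to 306 and 46 to 115, lowest without liver replicate 1, liver replicate 1 and spleen replicate 1.

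Of 21 member pairs, 5 lay on 1 side of 1 in all libraries. The number was 1 after thinning, 8 with no depth bins, 2 without the 5% of cells with the most UMIs, and 5 to 8 with 1 library left out, highest without lymph node replicate 2.

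Without iNKT17-like cells, log2 differences over all cells changed sign between spleen and lymph node for Gata3 (0.034) and Runx3 (0.0080) and between liver and lymph node for Rora (0.12). In iNKT1-like cells, resolution 1.0 turned Hopx for liver against spleen (-0.020) and Maf (0.058) and Runx3 (0.020) between spleen and lymph node. The unnamed cluster turned Hopx between liver and spleen (-0.011), Zbtb16 (-0.25) and Rora (0.10) between liver and lymph node and Runx3 between spleen and lymph node (0.095). DESeq2 turned Rora between spleen and lymph node (-0.0050). With no filter, Maf between spleen and lymph node was 0.0096 in iNKT1-like cells, and Rora was -0.0078 in iNKT17-like cells.

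With 1 library left out, the sign of these log2 differences also turned. Over all cells, Gata3 between spleen and lymph node ran from -0.16 to 0.083, Hopx between liver and spleen from -0.086 to 0.29 and Zbtb16 between liver and lymph node from -0.19 to 0.093. In iNKT1-like cells, Hopx between liver and spleen ran from -0.15 to 0.16. Between spleen and lymph node, Gata3 ran from -0.57 to 0.15, Maf from -0.30 to 0.27, Rora from -0.11 to 0.22 and Zbtb16 from -0.36 to 0.32. In iNKT17-like cells, between liver and spleen, Gata3 ran from -0.27 to 0.42, Rora from -0.55 to 0.10 and Runx3 from -1.56 to 0.37. Between spleen and lymph node, Gata3 ran from -0.50 to 0.20, Rora from -0.19 to 0.26 and Zbtb16 from -0.16 to 0.019. Rora between liver and lymph node ran from -0.45 to 0.19.

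Libraries of different organs share replicate numbers in the labels, which do not say that a number marks a shared mouse or day. Deviations of same-numbered libraries correlated at 0.0679 to 0.0856 over 10251 genes. With the replicate number as a block, 3069, 4172 and 2140 genes were called over all cells for liver against spleen, liver against lymph node and spleen against lymph node. In iNKT1-like cells the block called 2473, 728 and 335 genes, Gata3 among them for liver against spleen (adjusted p = 0.0143) and against lymph node (adjusted p = 0.0365).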
